A study of Mus musculus with 6 samples.

Results

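Carbonic anhydrases are zinc enzymes that turn carbon dioxide and water into bicarbonate and a proton, and back. The genes described here were taken by name: Car2, Car3, Car4, Car7, Car8, Car11, Car12, Car13 and Car14, 9 members in all. Counts were deposited per Ensembl transcript, and the transcripts were assigned to genes with the GENCODE M21 annotation of the mouse genome GRCm38. Of the 9 members, 8 had at least 1 listed transcript and so a row among 33676 genes, and Car8 had none and is not analysed here. The members had 18 of their 34 annotated transcripts in the table, and 7 members passed the filter on low counts and were tested among 14118 genes.

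The samples were of the modiolus of C57BL/6 mice, the central pillar of bone in which the spiral ganglion neurons (SGNs) sit. The 3 control libraries were from saline-treated mice and the 3 degenerated libraries from mice whose SGNs had degenerated. In the study's design these were male mice, 8 weeks old at treatment, given 1 g/kg kanamycin under the skin and, 30 min later, 0.4 g/kg furosemide into the abdomen, and sampled 30 days afterwards. This pair of drugs, an aminoglycoside antibiotic and a loop diuretic, kills hair cells, after which SGNs are lost. The sources used here do not give the number of mice behind a library or say that the libraries came from separate mice, so that p-values measure the spread between these libraries, which may be technical.

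In the inner ear, carbonic anhydrases are known from the fibrocytes of the lateral wall, the stria vascularis and supporting cells, where bicarbonate takes part in setting the pH and the potential of the endolymph. Car2, Car3, Car7 and Car13 are enzymes of the cytosol, Car4 is tied to the outer face of the membrane by a lipid anchor, and Car12 and Car14 cross the membrane with their active site outside the cell. Car8 and Car11 belong to the family by sequence and are known as carbonic anhydrase-related proteins without the enzymatic activity.

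The difference between the enzymes and a related protein can be read in a short stretch of the coding sequence. The active site holds its zinc ion with histidines, and a pair of them lie next to each other with a single residue in between. The stretch below runs from 1 codon before that pair to the shared glycine, serine, glutamate and histidine that follow it. It is shown for 5 members, 5' to 3' on the coding strand of the GENCODE M21 transcript, in lower case with the codons at the positions of the pair in capitals.
Car2-201: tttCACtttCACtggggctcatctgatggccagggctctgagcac
Car3-201: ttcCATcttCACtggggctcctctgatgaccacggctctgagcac
Car13-201: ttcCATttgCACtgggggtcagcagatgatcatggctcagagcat
Car14-201: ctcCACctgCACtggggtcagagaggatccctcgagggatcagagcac
Car11-201: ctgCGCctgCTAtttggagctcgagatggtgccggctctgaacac

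CAC and CAT code for histidine, and 7 members, Car2, Car3, Car4, Car7, Car12, Car13 and Car14, held a histidine codon at both positions. Car11 had a histidine codon at neither position, with CGC and CTA in their place. Each stretch lay within 1 exon: exon 3 of 7 in Car2 (chr3:14895066-14895110, plus strand), in Car3 (chr3:14866847-14866891, plus strand) and in Car13 (chr3:14650703-14650747, plus strand), exon 4 of 11 in Car14 (chr3:95900273-95900320, minus strand) and exon 4 of 9 in Car11 (chr7:45702545-45702589, plus strand).

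A library held 12480876 to 15549319 counts, and replicates correlated at 0.913 to 0.948 (Pearson, log2 CPM across genes, which are not independent replicates), where CPM are counts scaled to library size and to the TMM factor of each library, which lines up the bulk of the genes. Control 1, degenerated 1 and degenerated 2 stood apart from the other libraries on the first principal component, which held 30.6% of the variance, so that results are also given with a term for this split. The label names spiral ganglion neurons as the cell type, but whole modiolus holds many cells: the 12 neuron markers all had a row, led by Snap25 with 2817 ± 449 CPM in control libraries (SD, n = 3), while the 12 red-cell markers, 7 of them with a row, summed to 3464 to 40709 CPM. A gene was called where the unadjusted p of edgeR's quasi-likelihood test was under 0.01 and the absolute log2 fold change above 0.2. Of 14118 genes, 284 (2.01%) were called higher and 101 (0.715%) lower in degenerated libraries, 385 (2.73%) in either direction. At a Benjamini-Hochberg adjusted p under 0.05, edgeR's test called 0 (0%), with 1367 (9.68%) at an unadjusted p under 0.05, and limma-voom called 0 and DESeq2 315. Of 26065 transcripts, 296 (1.14%) were called higher and 170 (0.652%) lower, 466 (1.79%) in either direction, with 4 (0.0153%) at the adjusted p and 1968 (7.55%) at an unadjusted p under 0.05.

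One member, Car13, rose in degenerated libraries, by 1.79-fold, and no member fell. These were 1 and 0 of the 7 tested members, beside 2.01% called higher and 0.715% called lower among all genes. The median log2 fold change over the 7 members was 0.10, beside -0.0034 over all genes tested, and 4 of the 7 had a positive log2 fold change. Car13 was also the only member whose control and degenerated libraries did not overlap, 1 of 7, while 17.7% of all genes tested did not overlap (10.3% with the degenerated libraries above and 7.37% with them below). The libraries of the 2 groups overlapped in the abundant Car2, Car3, Car11 and Car14 and in the sparse Car7 and Car12.

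**Figure D1:**
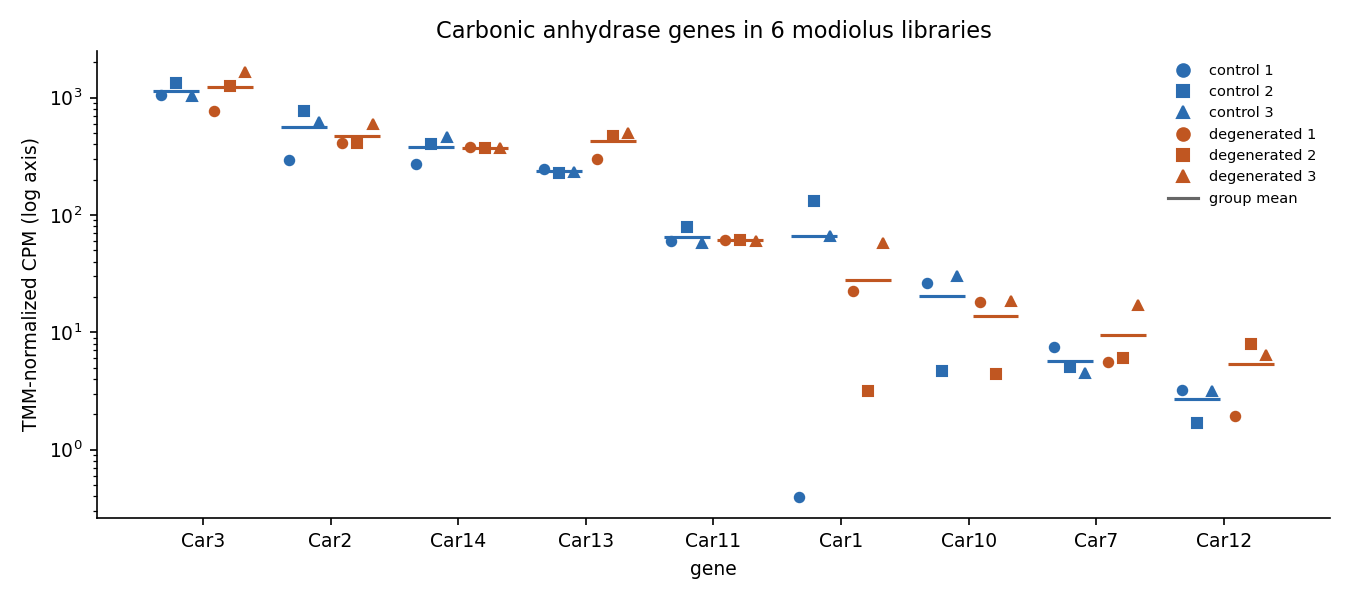
TMM-normalized CPM of the 7 tested members and of Car1 and Car10 in each of the 6 libraries, on a log axis, with a bar at the mean of each group of 3. Only the points of Car13 part by group, at 229 to 247 CPM in the controls and 298 to 499.8 CPM in degenerated libraries, while Car1 spreads from 0.397 to 130.2 CPM within the controls.

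Levels of different genes were compared per length, as TPM, the count per kilobase of each listed transcript scaled to the same total in every library. The 4 most abundant members were Car3, with a mean of 1349 TPM over the 6 libraries (range 864 to 1967), Car2 with 541 TPM (322 to 736), Car14 with 415 TPM (312 to 489) and Car13 with 276 TPM (171 to 427). Each of these 4 lay above at least 98.6% of the 33676 genes with a row. In that order the ranges of Car2 and Car14 overlapped, and so did those of Car14 and Car13, while Car3 was above Car2 and Car13 was above Car11 in every library. Car11 followed with 86.2 TPM (73.7 to 97.3), Car7 with 11.3 TPM (6.48 to 24.2) and Car12 with 5.36 TPM (1.79 to 10.4), and Car4 was the lowest with 0.603 TPM (0 to 1.61). The ranges of Car7 and Car12 overlapped. The listed transcripts hold 1 of the 3 coding ones of Car12 and 1 of the 2 of Car4. Their low places in this order are therefore those of the listed transcripts, not of the whole genes. In the controls Car13 was the lowest of the first 4 in each library, and in degenerated 3 it stood level with Car14, at 427 TPM against 425 TPM.

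Car13 encodes a cytosolic enzyme with a wide tissue distribution. It has 1 annotated transcript of 2299 bases and 7 exons, Car13-201 (chr3:14641727-14663002, plus strand), which the table lists, so that the counts of the gene are complete. Counts of Car13 were 3731, 3239 and 3626 in the controls and 4358, 6679 and 6332 in the degenerated libraries. Every degenerated library was thus above every control library, degenerated 1 by the smallest margin. Scaled to depth the controls were at 236 ± 9.71 CPM and the degenerated libraries at 423 ± 109 CPM (SD, n = 3 each), and the spread among the degenerated libraries came from degenerated 1 at 298 CPM, since degenerated 2 and 3 were at 470.4 and 499.8 CPM.

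The log2 fold change of Car13 was 0.84 (SE 0.21, 95% interval 0.34 to 1.34), and its unadjusted p in the quasi-likelihood test of edgeR was 0.00610, with a Benjamini-Hochberg adjusted p of 0.342 over all genes tested. An exact two-sided permutation test of 3 against 3 libraries cannot go below p = 0.1. The call is close to the threshold of 0.01. It was lost without control 1 (log2 fold change 0.87, p 0.0186 in edgeR's test), control 2 (0.82, p 0.0241), control 3 (0.82, p 0.0264), degenerated 2 (0.75, p 0.0266) or degenerated 3 (0.70, p 0.0208), and was kept without degenerated 1 (1.03, p 0.000233). With a term for the 3 libraries that stood apart the log2 fold change was 0.88 and the p 0.0103. Within the 3 libraries, Car13 was at 247 CPM in control 1 and at 298 and 470.4 CPM in degenerated 1 and 2, and among the other 3 at 229 and 231 CPM in control 2 and 3 and at 499.8 CPM in degenerated 3, so that the degenerated libraries were above the controls on both sides of the split. The adjusted p over the 15 alternatives ran from 0.0998 to 0.662.

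**Figure D2:**
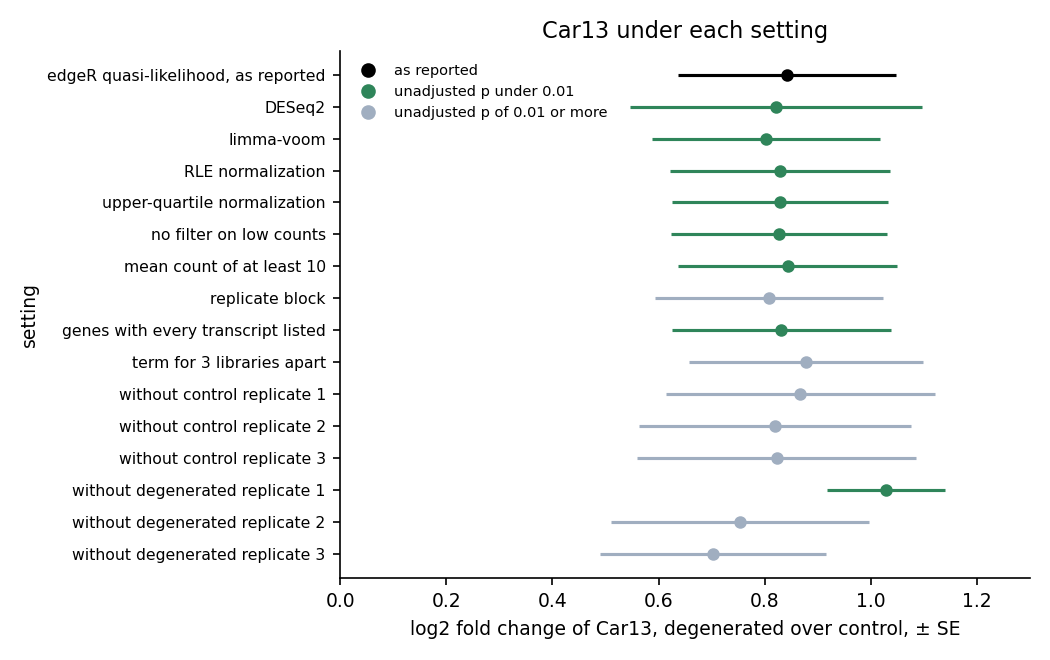
Log2 fold change of Car13, degenerated over control, with its standard error as a line, under the reported test and the 15 alternatives. The values run from 0.70 to 1.03 and all lie above 0, and 8 of the 15 alternatives kept the unadjusted p under 0.01.

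The genes whose pattern over the 6 libraries was most like that of Car13, by Pearson's r of log2(CPM + 1) among 8423 other genes with a mean above 10 CPM, were Gdf6 (r = 0.993), which encodes a growth and differentiation factor of the BMP family, Dusp16 (r = 0.990), a MAP kinase phosphatase, and Ildr1 (r = 0.989), a protein of tricellular junctions whose loss causes deafness. With 6 points that part by group such values are a description. Gdf6 was at 53.2 ± 7.09 CPM in the controls and 118 ± 42.9 CPM in degenerated libraries, and Ildr1 at 29.9 ± 2.94 CPM and 54.8 ± 14.0 CPM (SD, n = 3 each).

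In the same libraries the summed markers of the stria, of supporting and otic epithelial cells and of neurons parted by group, while other sums overlapped. The osteoclast markers are given with Car2 below. The 10 stria vascularis markers, 7 of them with a row, summed to 472 to 533 CPM in the controls and 767 to 1088 CPM in degenerated libraries, and 1 of the 5 tested was called higher, beside 2.01% of all genes. This was Kcnj10, a potassium channel, at 407 ± 64.2 against 722 ± 82.1 CPM (SD, n = 3 each). Kcnj10 alone held most of the stria sum in every library, and Met added 139 CPM in degenerated 2, so that the sum mainly follows Kcnj10. The 12 markers of supporting and otic epithelial cells, 9 with a row, summed to 1765 to 2021 CPM and 2177 to 2651 CPM, with 6 of the 9 tested positive and 3 negative in log2 fold change. Of these 9, 1 was called higher, beside 2.01% of all genes, namely Cdh1. Gjb2 alone held most of this epithelial sum in every library. The neuron markers summed to 9327 to 12693 CPM in the controls and 5853 to 8402 CPM in degenerated libraries, with 0 of the 11 tested called. Nefl, Nefm, Nefh and Snap25 held most of this sum in every library, so that it mainly follows these genes. Of the 11 tested, 9 were negative and 2 positive in log2 fold change, with Tubb3 at -0.04 and Uchl1 at -0.07. The hair cell markers, 11 of 12 with a row, overlapped in sum (526 to 780.1 against 213 to 533 CPM), and 2 of the 9 tested were called lower, beside 0.715% of all genes, among them Ocm, which codes for oncomodulin, the calcium buffer of outer hair cells, at 154 ± 17.0 against 2.69 ± 1.67 CPM (SD, n = 3 each). The macrophage markers, 9 of 12 with a row, overlapped in sum (536 to 585 against 575 to 804 CPM). Of the 7 tested, 2 were called higher, beside 2.01% of all genes, the complement genes C1qb (183 ± 17.4 against 294 ± 41.4 CPM) and C1qc (165 ± 12.6 against 255 ± 41.1 CPM). Of these 7, 4 were positive and 3 negative in log2 fold change, the negative ones being Cd68 (-1.54), Itgam (-0.67) and Cd163 (-0.26). Of the fibrocyte markers of the spiral ligament and limbus, 6 of 8 with a row, the sums overlapped (2408 to 3291 against 3193 to 3751 CPM). Among the 5 tested, 1 was called lower, beside 0.715% of all genes, namely Otor, at 203 ± 69.6 against 92.9 ± 11.4 CPM, while 4 had a positive log2 fold change. The skeletal muscle markers overlapped in sum (13.4 to 530.5 against 6.41 to 16.8 CPM), with control 3 far above the other libraries. Of the 5 tested, 1 was called higher, beside 2.01% of all genes, namely Tnni1, at the low level of 0.272 ± 0.149 against 1.82 ± 0.767 CPM. The other 4 had a negative log2 fold change, and the median was -3.27. Cdh1, Nefl, Nefm, Nefh, Tubb3, Uchl1, Ocm, C1qb, C1qc, Cd68, Itgam, Cd163, Otor and Tnni1 are named after their values were seen. In bulk tissue fewer cells of a type and less RNA per cell cannot be told apart, and the part of these shifts in the level of Car13 was not tested. Among the markers counted in part and below the filter, Syt1, a vesicle protein of neurons, was listed at 0.0669 CPM in controls and 0.356 CPM in degenerated libraries in 1 of its 6 transcripts, and Kcnq1, a channel of the marginal cells of the stria, at 0.0654 and 0.0526 CPM in 1 of its 7, so that their other transcripts are not measured here.

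Car2 encodes the fast cytosolic enzyme that is abundant in red cells, in osteoclasts and in oligodendrocytes. It is counted in part, in 2 of its 3 transcripts and 1 of its 2 coding ones. Its counts were 4398, 10794 and 9781 in the controls, against 5992, 5770 and 7493 after degeneration. Control 1 was the lowest of the 6 and control 2 the highest, so that the degenerated libraries lay within the range of the controls. Scaled to depth Car2 was at 559.6 ± 243 CPM in the controls and, after degeneration, at 469 ± 106 CPM (SD, n = 3 each), with a log2 fold change of -0.25 (SE 0.37, 95% interval -1.16 to 0.65, unadjusted p 0.518 in edgeR's test). Its sign rested on single libraries: it was 0.03 without control 2, -0.57 without control 1 and 0.13 with the term for the 3 libraries apart, and none of these reached the threshold.

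The order of the libraries by Car2 was also their order by Car1, the carbonic anhydrase of red cells, from control 1 through degenerated 2, 1 and 3 to control 3 and control 2. Car1 was at 0.397, 130.2 and 66.4 CPM in control 1, 2 and 3 and at 22.4, 3.17 and 58.1 CPM in degenerated 1, 2 and 3. The libraries with the most Car1 also had the most red-cell markers, led by Hbb-bs, a beta globin. The 7 listed red-cell markers summed to 6393, 40709 and 21145 CPM in control and 7139, 3464 and 16319.5 CPM in degenerated libraries, and 0 of the 6 tested were called. Control 1, degenerated 1 and degenerated 2, which stood apart on the first principal component, had the lowest sums. The term for that split and the red-cell sum therefore cannot be told apart here.

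For Pearson's r the level of a gene and this sum were both taken as log2(CPM + 1). Across the 6 libraries Car2 followed this sum with Pearson's r = 0.865 (exact permutation p = 0.0319) and Spearman's rho = 0.943 (exact permutation p = 0.0167), two-sided. On the log scale control 2 and degenerated 2 lay farthest from the median of the sum, and without these 2 libraries r was 0.941. Car1 had r = 0.854 (exact permutation p = 0.0292) and rho = 0.943 (exact permutation p = 0.0167), with r = 0.808 without those 2. Over the 9 relations computed, 1 for each tested carbonic anhydrase gene, the adjusted exact permutation p was 0.144 for r and 0.075 for rho in both genes, so that neither passed the correction. Car13 had r = -0.460 (exact permutation p = 0.331) and Car3 r = 0.336 (exact permutation p = 0.521). The part of red cells in the level of Car2 was not tested further. The osteoclast markers, 8 of 10 with a row, summed to 365 to 628 CPM in the controls and 84.8 to 302 CPM in degenerated libraries, led by Mmp9, a protease that macrophages and osteoclasts secrete, with Calcr, the calcitonin receptor, at 0 in degenerated 1 and 3. By library these sums were 433, 628 and 365 CPM in control 1, 2 and 3 and 152, 84.8 and 302 CPM in degenerated 1, 2 and 3. The oligodendrocyte markers, 8 of 10 with a row, summed to 837, 712 and 822 CPM in control and 1163, 854 and 713 CPM in degenerated libraries. The part of osteoclasts and of oligodendrocytes in the level of Car2 was not tested.

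**Figure D3:**
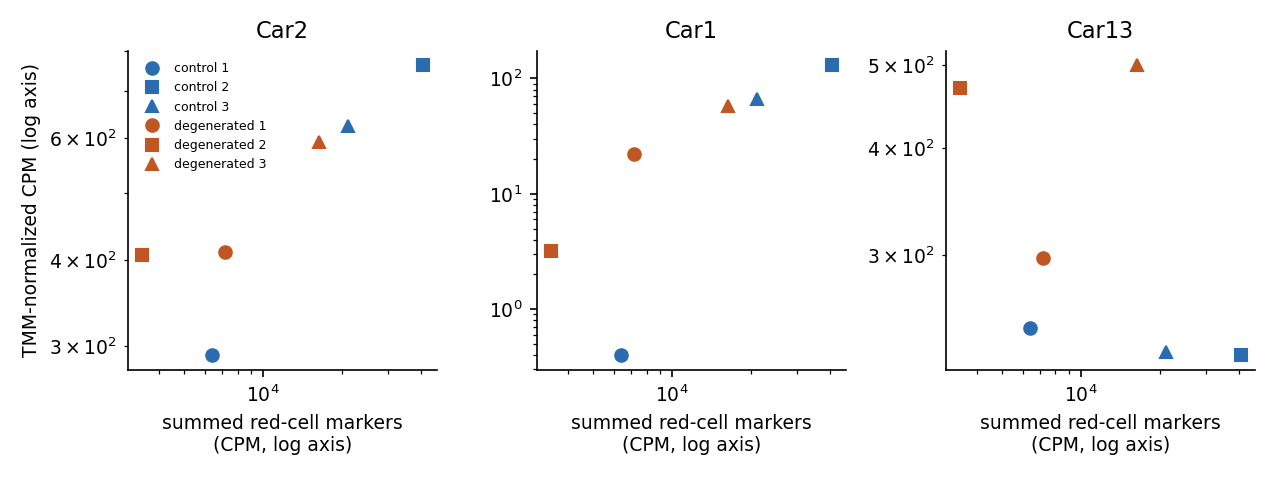
TMM-normalized CPM of Car2, Car1 and Car13 against the summed CPM of the 7 listed red-cell markers, both on log axes, 1 point per library. Car2 and Car1 are lowest in control 1 and highest in control 2, which holds 40709 CPM of the markers, while Car13 parts by group at any marker sum.

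Car3, the slow cytosolic enzyme known from skeletal muscle, fat and liver, was the most abundant member. Its counts were 15754, 18747 and 16141 in the controls and 11142, 17630 and 20918 in the degenerated libraries. Degenerated 1 was the lowest and degenerated 3 the highest of the 6, so the degenerated libraries spread to both sides of the controls. The means were 1133 ± 168 CPM and 1218 ± 445 CPM (SD, n = 3 each), with a log2 fold change of 0.10 (SE 0.29, 95% interval -0.61 to 0.82, unadjusted p 0.732 in edgeR's test) and of -0.18 without degenerated 3. The skeletal muscle markers, all 16 with a row and Myh2 and Myh7 at 0 in every library, summed to 530.5 CPM in control 3 and to 6.41 to 16.8 CPM in the other 5 libraries. Car3 was at 1029.9 CPM in control 3 and higher than that in 4 of the others. The fat-cell markers, 11 of 12 with a row and Lep at 0 in every library, summed to 136 to 201 CPM. Plin4 and Lpl held most of this sum in every library. Cfd, Plin1 and Ucp1 had 226, 86 and 228 counts in control 1 and 0 to 6 in any other library, and Car3 was at 1042.8 CPM in control 1. These fat-cell genes are named after their values were seen, and the part of fat cells in the level of Car3 was not tested.

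Car7, a cytosolic enzyme of neurons, had 3 of its 5 transcripts in the table and is therefore counted in part. The controls had 112, 72 and 71 counts of it and the degenerated libraries 82, 86 and 214. Degenerated 3 stood alone, and the other 5 libraries were at 4.53 to 7.41 CPM. The group means were 5.68 ± 1.53 CPM and 9.52 ± 6.39 CPM (SD, n = 3 each), with a log2 fold change of 0.74 (SE 0.52, 95% interval -0.53 to 2.02, unadjusted p 0.205 in edgeR's test), which was 0.04 without degenerated 3. The paper names Car7 as its most significant gene of chromosome 8 during SGN degeneration, without stating a test there. At the criteria used here Car7 was not called, in the transcripts listed.

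Of the members of the membrane, Car14 had 4114, 5633 and 7273 counts in control and 5533, 5237 and 4687 counts in degenerated libraries. It is counted in part, in 1 of its 4 transcripts and 1 of its 2 coding ones. The controls enclosed the degenerated libraries, which lay close together at 372 ± 5.27 CPM against 378 ± 97.5 CPM in control (SD, n = 3 each). The log2 fold change was -0.02 (SE 0.20, 95% interval -0.51 to 0.46, unadjusted p 0.913 in edgeR's test), and its sign changed in 5 of 14 alternatives. The 3' end of Car14 (chr3:95897768-95904691, minus strand) overlaps Aph1a (chr3:95893969-95898288), a subunit of gamma-secretase on the other strand, and the labelled kit does not keep strand, so that reads of the overlap cannot be told apart. Aph1a had 50 to 115 counts in its 2 listed transcripts.

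Car12 had 49, 24 and 49 counts in control and 28, 112 and 81 counts in degenerated libraries. Degenerated 2 and 3 were the highest of the 6 and degenerated 1 was among the controls. The means were 2.69 ± 0.861 CPM and 5.40 ± 3.11 CPM (SD, n = 3 each), with a log2 fold change of 1.00 (SE 0.59, 95% interval -0.43 to 2.44, unadjusted p 0.140 in edgeR's test), between 0.62 and 1.39 when a library was left out. These counts came almost wholly from transcripts with a retained intron: the table lists 1 of the 3 coding transcripts of Car12, Car12-204, with 4 counts in all, while the retained-intron transcript Car12-205 had 271. They are thus not a measure of Car12 mRNA that codes for the enzyme. Car4, known from capillary endothelium, had 2, 1 and 9 counts in control and 0, 0 and 5 in degenerated libraries, in 3 of its 6 transcripts, and was below the filter. A count of 0 allows up to 3 counts, so that no difference was detectable at this depth in the transcripts listed, which hold 1 of the 2 coding ones.

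Of the carbonic anhydrase-related proteins, Car11 had 898, 1113 and 895 counts in control and 889, 871 and 765 counts in degenerated libraries. Control 2 was the highest and the other 5 lay between 57.1 and 61.3 CPM. The means were 65.1 ± 11.9 CPM and 60.8 ± 0.485 CPM (SD, n = 3 each), with a log2 fold change of -0.10 (SE 0.17, 95% interval -0.50 to 0.30, unadjusted p 0.577 in edgeR's test), which was 0.06 without control 2. For Car3, Car11 and Car14 the intervals leave out a change of more than 1 on the log2 scale in either direction, while for Car2, Car7 and Car12 they do not.

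**Figure D4:**
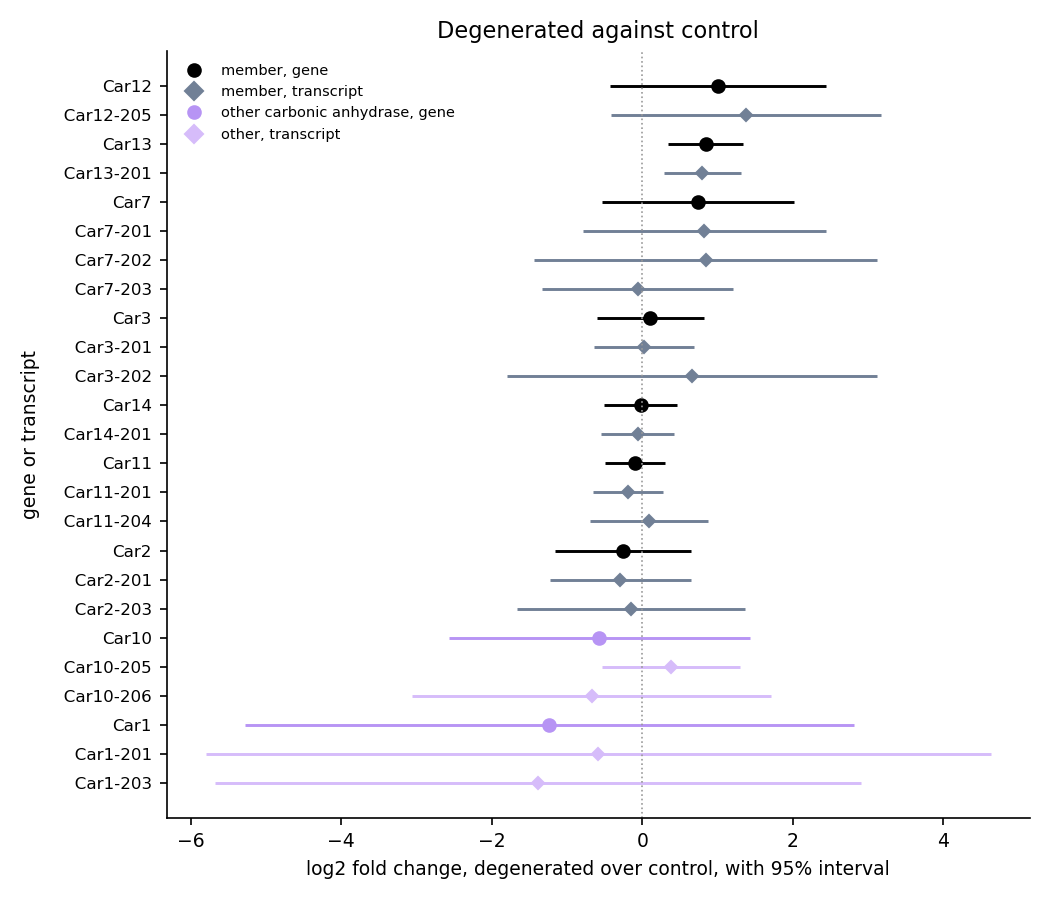
Log2 fold change, degenerated over control, with its 95% interval, for the 7 tested members, Car1 and Car10 (circles) and for their tested transcripts (diamonds), ordered by gene. Only the intervals of Car13 and Car13-201 lie wholly above 0, and that of Car1 is the widest among genes, from -5.28 to 2.81.

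By transcript, 1 of the 12 tested transcripts of members was called, Car13-201, beside 1.14% called higher among all transcripts tested. Its log2 fold change was 0.80 (SE 0.21, unadjusted p 0.00940 in edgeR's test, adjusted p 0.553), and the call was lost with DESeq2 (0.76, p 0.0152). The other 11 had log2 fold changes from -0.29 for Car2-201 to 1.37 for Car12-205, and none of them was called. Car2-201 held 99.2% to 99.9% of the listed Car2 counts in every library, so that the rows of the gene and of this transcript carry the same data. The other coding transcript of Car2 is not listed.

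Transcript shares varied among libraries of the same group. Car3-202, a transcript of Car3 with a retained intron, held 1.53%, 6.32% and 6.88% of the Car3 counts in control 1, 2 and 3 and 1.62%, 9.04% and 9.24% in degenerated 1, 2 and 3. Control 1 and degenerated 1 were the 2 low libraries, 1 of each group. Its log2 fold change was 0.66 (SE 0.99, unadjusted p 0.531 in edgeR's test). Car11-204, also with a retained intron, held 15.6% to 16.4% of the Car11 counts in control and 15.1% to 21.3% in degenerated libraries. For Car7 the coding transcript Car7-201 held 59.2% to 78.6% in control and 65.1% to 78.0% in degenerated libraries, and Car7-202, which starts upstream of it, had 1 count in control 1 and 12 to 27 counts in the other libraries.

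**Figure D5:**
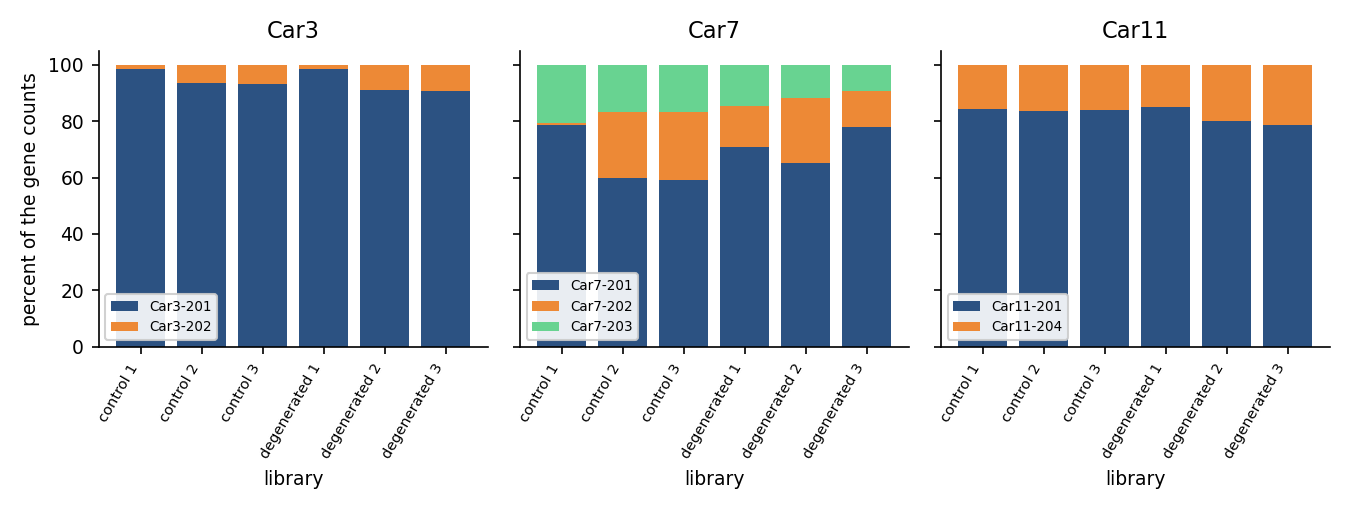
Share of the counts of Car3, Car7 and Car11 that each listed transcript took in the 6 libraries, as stacked bars in percent of the gene's counts. Car3-202 takes 1.53% and 1.62% in control 1 and degenerated 1 and 6.32% to 9.24% in the others, and Car7-202 is nearly missing from control 1.

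Of the 7 other carbonic anhydrases, 5 had a row, and 2 were tested, of which 0 were called. Car1 had a log2 fold change of -1.24 (SE 1.65, 95% interval -5.28 to 2.81, unadjusted p 0.483 in edgeR's test). Car10, a related protein of neurons without activity, was at 26.1, 4.67 and 30.2 CPM in control and 18.1, 4.44 and 18.5 CPM in degenerated libraries, with replicate 2 the lowest of either group, and had a log2 fold change of -0.57 (SE 0.82, unadjusted p 0.510). Car5b, a mitochondrial enzyme, had 1 to 6 counts a library in a transcript with a retained intron, while its 1 coding transcript is not listed, Car6, the secreted enzyme of saliva, 0 to 11 counts, and Car9, which hypoxia induces in many cells, 0 counts in its 3 listed transcripts. Car5a and Car15 had no row and are not analysed here.

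Car13, Car1, Car3 and Car2 lie side by side on chromosome 3, within 259 kb of GRCm38 (chr3:14641727-14900770), with no other protein-coding gene between them. The 4 neighbours did not order the libraries alike. Car13 was higher in every degenerated library than in any control, Car1 and Car2 ordered the libraries alike and without regard to group, and Car3 followed neither, being lowest in degenerated 1 and highest in degenerated 3. Their log2 fold changes, from Car13 to Car2 along the chromosome, were 0.84, -1.24, 0.10 and -0.25.

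The carriers that work beside carbonic anhydrases were taken as lists of the pathway, and 0 of their tested genes were called, in either direction, beside 2.73% of all genes. Bicarbonate transporters had 15 of 16 genes with a row and 10 tested, with a median log2 fold change of 0.26, 6 positive and 4 negative. The 3 with the smallest p were Slc4a8, a sodium-driven chloride-bicarbonate exchanger (20.4 ± 2.94 against 32.4 ± 11.2 CPM, unadjusted p 0.0785), Slc4a2, an anion exchanger (151 ± 24.2 against 178 ± 6.13 CPM, p 0.149), and Slc4a7, a sodium-bicarbonate cotransporter (74.3 ± 11.8 against 90.2 ± 14.3 CPM, p 0.176), all in edgeR's test. Slc4a2 was above its controls in every degenerated library, and the other 2 overlapped. Of the 10 tested, 1 did not overlap, beside 17.7% of all genes tested. In this list Slc4a1, the anion exchanger of red cells, ran from 8.67 CPM in control 1 to 816 CPM in control 2.

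Of the sodium-proton exchangers, 8 of 9 had a row and 5 were tested, with a median log2 fold change of -0.10. The smallest p was 0.477 in edgeR's test, for Slc9a5 (7.91 ± 3.50 against 6.20 ± 2.56 CPM), followed by Slc9a8 with a p of 0.517. Slc9a8 was at 40.8 CPM in control 2 and 49.5 and 67.4 CPM in degenerated 1 and 3 but under 1 CPM in the other 3 libraries, in 4 of its 13 transcripts. Of the carriers of lactate with a proton and their chaperones, 5 of 6 had a row and 4 were tested, with a median of 0.04. Slc16a3, the lactate exporter of glycolytic cells, was at 12.5 ± 8.92 CPM in the controls and 4.95 ± 1.24 CPM in degenerated libraries (p 0.0656 in edgeR's test), Slc16a8 at 4.45 ± 1.82 and 6.84 ± 3.24 CPM (p 0.270), and Bsg, the chaperone basigin, at 289 ± 29.9 and 299.5 ± 44.5 CPM (p 0.733).

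The cation-chloride cotransporters, which carry chloride and potassium across the cells of the lateral wall, all had a row, and 6 of 7 were tested. All 6 had a positive log2 fold change with a median of 0.34, beside 7016 positive among the 14118 genes tested. Their summed level was 1577 to 1951 CPM in the controls and 1958 to 2847 CPM in degenerated libraries, so that the groups were apart by a narrow margin. Slc12a2, the largest part of this sum, overlapped. Of the 6 tested, 1 did not overlap, beside 17.7% of all genes tested. Slc12a7, a potassium-chloride cotransporter, was at 316, 253 and 191 CPM in control and 337, 493 and 419 CPM in degenerated libraries, with a log2 fold change of 0.72 (SE 0.23, unadjusted p 0.0197 and adjusted p 0.421 in edgeR's test). Slc12a2, which loads potassium and chloride into marginal cells of the stria, was at 1237 ± 264 and 1649 ± 357 CPM (p 0.113). The inositol trisphosphate receptors are listed because Car8 is known to bind one of them, Itpr1. Itpr1 was the only one of the 3 tested, at 6.38 ± 4.17 CPM in the controls and 14.4 ± 7.21 CPM in degenerated libraries, which overlapped (p 0.116 in edgeR's test).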

How the data were processed

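The deposited table holds raw counts per Ensembl transcript, whole numbers without normalization, for 3 control and 3 degenerated libraries. For this study the authors named Hisat2 and StringTie, while the submitters' processing notes name Bowtie 0.12.2 and the builds mm8 and mm10. How raw counts were drawn from these tools, and on which annotation, is not stated there. The table lists 65535 transcripts, of which 263, with 0.125% of all counts, did not match GENCODE M21 and were left out. The other 65272 are 46.0% of the annotated transcripts, and 17789 of 33676 genes had every transcript listed. Why the rest are missing is not stated. Transcripts with 0 counts in every library, such as those of Car9, are listed, so that a missing row does not show a lack of counts. Scaling, TPM and ranks among genes cover the listed transcripts only. Counts were summed per gene.

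Genes and transcripts were tested in R 4.3.3 with edgeR 4.0.16 (filterByExpr, TMM, robust quasi-likelihood F test, no covariate), with adjustment over all features tested. SE is the log2 fold change over the square root of F, and intervals use its degrees of freedom. DESeq2 1.42.0, limma 3.58.1 (voom) and the other settings below were alternatives. TPM is the count per kilobase of each listed transcript, scaled to the same total in every library. Where a count was 0, up to 3 counts were allowed for, which covers counting error only.

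Members and lists were chosen with earlier results of these data known. Named are every member, other carbonic anhydrases with a row, called genes of each pathway list or else its 3 smallest p, the 3 genes most like a called member, and markers highest, lowest or at 0 in their list. Some genes and 1 sequence that this rule names are not reported here. The steps were tested on simulated data.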

Additional observations from a re-analysis of the deposited data

How the results depend on the processing

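Car13 kept a positive log2 fold change under all 15 alternatives (0.70 to 1.03), and its unadjusted p stayed under 0.01 with DESeq2 or limma-voom, with upper-quartile or RLE normalization, with no filter, with a mean count of at least 10, genes with every transcript listed and without degenerated replicate 1. Whether the replicate numbers pair the libraries is not stated in the sources used here. Deviations from the group mean correlated at 0.160, -0.0905 and 0.0674 between control and degenerated libraries of the same number. Between different numbers they correlated at -0.276 to 0.235. With so few libraries these values cannot decide whether libraries were paired. With the replicate number as a block, Car13 had a log2 fold change of 0.81 and p 0.0192 in edgeR's test, 160 genes were called higher and 58 lower, 0 carbonic anhydrase genes higher, and of transcripts 138 higher, 83 lower, 0 at the adjusted p and 0 of carbonic anhydrases. With the term for control 1, degenerated 1 and degenerated 2, 0 carbonic anhydrase genes were called higher. DESeq2 called 465 genes higher and 310 lower, 315 at an adjusted p under 0.05, and 749 transcripts higher and 598 lower, 473 at the adjusted p. Among genes with every transcript listed, 82 were called higher and 53 lower of 3470 tested, 3 at the adjusted p. No carbonic anhydrase transcript was called higher with DESeq2, RLE normalization or a mean count of at least 10 (0 each), and the last gave 2 transcripts at the adjusted p. No carbonic anhydrase gene or transcript was called lower under any alternative.

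Leaving out a library gave 144 (without degenerated 2) to 339 (without control 1) genes called higher, 76 (without degenerated 1) to 158 (without control 1) lower and 0 to 3 (without degenerated 3) at the adjusted p, 211 to 412 transcripts higher, 152 to 230 lower and 1 (without control 3 or degenerated 3) to 7 (without control 2) at the adjusted p, and 0 to 1 carbonic anhydrase genes or transcripts higher.

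Of the genes and transcripts that were not called, 27 values changed sign, none past the threshold. With the term for the 3 libraries, Car2 came to 0.13, Car14 to 0.12 and Car1 to 1.69; with limma-voom Car14 to 0.012 and Car1 to 0.042; with the block Car14 to 0.011 and Car3-201 to -0.027; and with DESeq2 Car3-201 to -0.018. Over the libraries left out, the log2 fold change ran from -0.57 to 0.034 for Car2, -0.18 to 0.34 for Car3, -0.19 to 0.060 for Car11 and -0.22 to 0.14 for Car14. It ran from -0.73 to 0.063 for Slc9a5 and -0.071 to 0.15 for Bsg, and among transcripts from -0.015 to 0.27 for Car11-204, -0.25 to 0.10 for Car14-201, -0.43 to 0.28 for Car2-203, -0.25 to 0.25 for Car3-201, -0.014 to 1.26 for Car7-201 and -0.50 to 0.32 for Car7-203. The cause of these changes was not tested. With the mean length of the listed transcripts in place of each transcript's own, Car7 and Car10 changed places in the order by TPM (2 positions).

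Low counts limit Car4, Car5b, Car6 and Car9, with 0 to 11 a library. Between-library spread limits the rest: the common biological coefficient of variation was 0.488 for genes and 0.694 for transcripts. Transcripts that the table does not list limit Car12, Car7 and Car8. They also limit Car2, Car4, Car9 and Car14, each with 1 of 2 coding transcripts listed, Car10, with 2 of 5, and Car5b, with 0 of 1. Car3 and Car11 had their 1 coding transcript listed, but were counted in 2 of 3 and 2 of 5 transcripts.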
